A study of Homo sapiens with 21 samples.

Results

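The genes of the mitochondrial ribosome and of the mitochondrial protein import machinery were followed through the differentiation of human induced pluripotent stem cells into cardiomyocytes. Members were taken by symbol alone: every row whose gene symbol is MRPL or MRPS, TIMM or TOMM followed by a number, with a final letter allowed. The rule found 225 of the 36579 rows in 6 tables, which are 136 of 21537 distinct transcripts and 94 of 11852 distinct gene symbols. RNA-seq was made from 21 libraries of PGP1 cells, a human iPSC line in common use. Of these, 15 were wild type, with 3 libraries at each of 5 stages, the undifferentiated iPSCs and their derivatives at mesoderm (M), then at cardiac mesoderm (CMes), then as cardiac progenitors (CP) and last as cardiomyocytes (CM). The other 6 were CMs without *UBE2B*, an enzyme of the complex that attaches a single ubiquitin to histone H2B, with 3 libraries from *UBE2B*-/-1 and 3 from *UBE2B*-/-2. Both mutant lines were edited separately from the same iPSC line, each is a clonal line, and only wells that beat were sampled, after a metabolic selection with lactate, so the mutant libraries stand for cells that differentiated far enough to beat. Replicates were plates whose differentiation began at different times.

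Mitochondria keep a small genome that encodes core subunits of the respiratory chain, and a ribosome of their own translates it. All the proteins of that ribosome are encoded in the nucleus, made in the cytosol and imported. The outer membrane is crossed through the TOM complex, in which *TOMM20*, *TOMM22* and *TOMM70* act as receptors and *TOMM40* forms the pore. The small TIM chaperones carry hydrophobic proteins across the space between the membranes, TIM22 inserts carrier proteins into the inner membrane, and TIM23 takes proteins with a presequence through or into it. Heart muscle depends on mitochondrial respiration and is rich in mitochondria.

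The deposited tables hold no value per library. The column used here is the authors' mean over all libraries of a fit of the natural log of estimated counts plus 0.5. Here it was turned back into estimated counts and divided by transcript length, and this is called the level, in estimated counts per kb. The levels given here are therefore not those of 1 stage or 1 genotype by itself, and the depth of the libraries is unknown here. The spread between libraries of the same group is known only through the authors' variance estimates. The square root of their technical and biological variance together, called the residual SD, is given in natural-log units. It is the spread of 1 library, and the error of a mean over several libraries is smaller. A gap below the residual SD therefore does not show that levels are equal. The authors' effect sizes and p-values were not used, so no direction of change is given and no test was run. The paper's methods set a limit on the q-value and another on the fold change for differential expression, and by which of them rows were kept in the deposited tables is not given in the sources used here. Being listed therefore describes the table and is no separate evidence of a change. Adjacent stage tables share the libraries of a stage, and both *UBE2B*-/- tables share the wild-type CMs. The same wild-type CMs are also in the CP and CM table. The 1992 transcripts in both *UBE2B*-/- tables had the same mean and variances in each, so the tables come from a single fit of 9 libraries.

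The rows were spread unevenly over the tables. The table of CP and CM listed 91 member transcripts of 68 genes, that of M and CMes 59 of 43 genes, and that of CMes and CP 44 of 42 genes. For iPSC and M, 10 transcripts of 9 genes were listed, for *UBE2B*-/-1 11 transcripts of 11 genes and for *UBE2B*-/-2 10 transcripts of 10 genes. Because the tables differ in length, the members made up 0.302% of the rows of the iPSC and M table, 0.902% of M and CMes, 0.585% of CMes and CP, 0.701% of CP and CM, 0.356% of the *UBE2B*-/-1 table and 0.319% of the *UBE2B*-/-2 table. The share was thus highest in the table that compares M with CMes, although the CP and CM table listed more transcripts. Whether these shares differ by more than sampling was not tested.

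**Figure D1:**
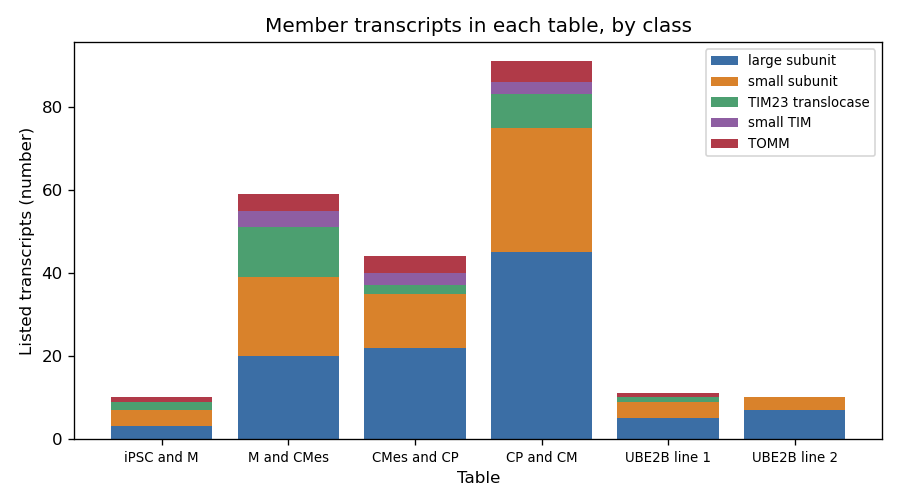
Number of listed member transcripts (vertical axis) in each of the 6 tables (horizontal axis), with bars stacked by class. The CP and CM bar reaches 91, M and CMes 59 and CMes and CP 44, and the other tables reach 10 or 11.

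Of 103 symbols that GENCODE 44 annotates under the rule, 94 (91.3%) were listed in at least 1 table. Of all 20020 protein-coding symbols of GENCODE 44, many of which these cells may not express, 11331 (56.6%) were. By table, the members' share was 8.74% beside 12.6% of all protein-coding symbols for iPSC and M, 41.7% beside 22.7% for M and CMes, 40.8% beside 26% for CMes and CP, and 66% beside 37.8% for CP and CM. For *UBE2B*-/-1 it was 10.7% beside 11.9%, and for *UBE2B*-/-2 9.71% beside 11.7%. These shares were not tested. The large subunit of the mitochondrial ribosome (MRPL) had 46 of 49 symbols listed, all but *MRPL14*, *MRPL23* and *MRPL48*. The small subunit (MRPS) had 28 of 29, all but *MRPS27*. All 7 genes of the TIM23 translocase were listed. Of the 6 small TIM genes, 5 were listed, and *TIMM8A*, whose loss causes a deafness and dystonia syndrome, was not. Of the 10 TOMM genes, 8 were listed, and the paralogs *TOMM20L* and *TOMM40L* were not. Neither *TIMM22*, the channel of the TIM22 translocase, nor its partner *TIMM29* was in any table. A gene that is absent from a table can be absent for a low level, a small difference or a wide spread, and its level cannot be read there. The class names follow the symbols. *MRPS30* and *MRPS18A* are named for the small subunit, but their proteins sit in the large subunit, and the protein of *MRPS36* is a part of the oxoglutarate dehydrogenase complex.

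The small TIM proteins share a pair of CX3C motifs, in which cysteines separated by 3 other residues form the disulfide bonds that fold the chaperone. Their coding sequences are shown because this is the feature that defines the class and that its 5 listed genes have in common. Each stretch runs 5′ to 3′ from the first to the last cysteine codon of the motifs in the GENCODE 44 canonical transcript, and the capitals mark the 4 cysteine codons. The canonical transcript of *TIMM8B* (ENST00000504148.3) is not among the listed transcripts of that gene.
TIMM8B: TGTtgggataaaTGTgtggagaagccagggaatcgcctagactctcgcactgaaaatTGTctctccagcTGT
TIMM9: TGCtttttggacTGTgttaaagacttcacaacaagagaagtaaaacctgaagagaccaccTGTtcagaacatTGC
TIMM10: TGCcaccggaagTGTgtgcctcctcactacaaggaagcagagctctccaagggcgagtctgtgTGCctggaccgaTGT
TIMM10B: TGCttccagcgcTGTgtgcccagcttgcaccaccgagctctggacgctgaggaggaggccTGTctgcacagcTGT
TIMM13: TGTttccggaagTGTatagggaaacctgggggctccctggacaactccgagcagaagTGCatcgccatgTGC
The motifs were separated by 14 residues in *TIMM8B* and *TIMM13*, by 15 in *TIMM9* and *TIMM10B* and by 16 in *TIMM10*, in proteins of 83 to 103 residues. On GRCh38, the canonical transcript of *TIMM8B* lies on chromosome 11 from 112084800 to 112086756, that of *TIMM10* on chromosome 11 from 57528464 to 57530754 and that of *TIMM10B* on chromosome 11 from 6481501 to 6484681. The transcript of *TIMM9* lies on chromosome 14 from 58408495 to 58427531 and that of *TIMM13* on chromosome 19 from 2425625 to 2427586.

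The small TIM transcripts had intermediate levels. *TIMM13* had a level in the M and CMes table of 1071 per kb through the short transcript ENST00000591871.1 and 320.9 per kb through the canonical ENST00000215570.8, with residual SDs of 0.123 and 0.130. In the same table, its partner *TIMM8A* was not listed, *TIMM10* had 707.8 per kb and *TIMM9*, which forms a hexamer with *TIMM10*, had 243.9 per kb. *TIMM9* and *TIMM10* assemble in equal numbers, and their listed transcripts differed in level in that table. The residual SD was 0.193 for the *TIMM9* transcript and 0.133 for that of *TIMM10*, so the level of *TIMM9* is less well determined. The technical part of the residual variance was 51.7% for *TIMM9* and 16.6% for *TIMM10*. In the CMes and CP table, *TIMM13* was at 676.9, *TIMM10* at 503.8 and *TIMM8B* at 432.1 per kb. In the CP and CM table, *TIMM8B* was at 466.5 per kb through a coding transcript (ENST00000541231.1) and at 182.4 per kb through a transcript annotated as subject to nonsense-mediated decay (ENST00000509359.6). *TIMM10B*, which tethers the small TIMs to TIM22, was at 259.3 per kb there.

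The TOMM genes had the highest median level of the classes listed in the CP and CM table. *TOMM7*, a small subunit that modulates the stability of the TOM complex, reached 2970 per kb there (ENST00000358435.8, chromosome 7 of GRCh38, 22812974 to 22822849), with a residual SD of 0.127. *TOMM20* (ENST00000366607.5, chromosome 1, 235109341 to 235128837) was at 2277 per kb in the same table, with a residual SD of 0.136. These were above all other member transcripts of the table with a known length, whose next highest was *TIMM23* at 1177 per kb. Of the other TOMM genes, *TOMM5* was at 971.9, the receptor *TOMM70* at 615.3 and *TOMM34* at 522.4 per kb. *TOMM34* is a cytosolic cochaperone and not a subunit of the channel. The median of the 5 TOMM transcripts was 971.9 per kb, beside 300.2 per kb for all members.

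*TOMM20* was also the highest member of the iPSC and M table, at 2623 per kb from 8612 estimated counts and with a residual SD of 0.098. It stood at the 98.2 percentile of that table's rows by level, and at the 97.9 percentile of the CP and CM table. In the M and CMes table, the pore gene *TOMM40* had 1184 per kb through ENST00000405636.6 and 163.6 per kb through the canonical ENST00000426677.7. Technical variance made up 75.1% of the residual variance of the latter and 31.2% of that of the former. *TOMM70* was at 686.4 per kb in that table and at 673.8 in the *UBE2B*-/-1 table. In the CMes and CP table, *TOMM6* was at 1292, *TOMM22* at 770.8, *TOMM40* at 695.9 and *TOMM34* at 571.1 per kb.

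The listed transcripts of the TIM23 translocase ran from 4.417 to 1177 per kb in the CP and CM table, and the lowest of them rests on 3.401 estimated counts. *TIMM23*, its channel (ENST00000580018.4, chromosome 10, 45972489 to 46003742), was the class's most abundant gene in 3 tables, at 1517 per kb for M and CMes, 1173 for CMes and CP and 1177 for CP and CM. Its residual SDs were 0.102, 0.089 and 0.113. The paralog *TIMM23B* lies on the same chromosome, from 49942053 to 49974850 for the canonical transcript, and of the 564 coding bases that align with *TIMM23*, 541 (95.9%) are identical. Whether reads were split between these genes in quantification was not tested. The technical part of the residual variance, which repeated quantification gives, was 5.43%, 10.4% and 6.3% for *TIMM23* in these tables and 15.5% for the listed *TIMM23B* transcript, below the median of the members of each table. *TIMM23B* was listed only in the CP and CM table, through ENST00000478381.5, a transcript annotated as subject to nonsense-mediated decay, at 93.81 per kb.

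*TIMM44*, which anchors the import motor to the channel, was at 762.9 per kb in the iPSC and M table and at 638.4 in the M and CMes table through its canonical transcript. In the *UBE2B*-/-1 table it was listed through another transcript (ENST00000597926.1) at 17.33 per kb, from 14.2 estimated counts and with a residual SD of 1.338. The level of that row is therefore hardly determined. *TIMM17A* and *TIMM17B*, subunits that form the channel with *TIMM23*, were at 453.6 and 514.4 per kb in the CP and CM table, and these differed by less than the residual SD of either.

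*TIMM21* and *TIMM50* had the most listed transcripts of any member in a table, with 4 each for M and CMes. The most abundant of the *TIMM21* transcripts by estimated counts was ENST00000577952.1, annotated as retaining an intron, at 264.5 counts and 308.2 per kb. The canonical coding transcript (ENST00000169551.11) had 174.6 counts and, being longer, 56.63 per kb. In the CP and CM table the same pair was at 167 and 117.7 estimated counts, or 194.6 and 38.15 per kb, with residual SDs of 0.213 and 0.271. In estimated counts, not corrected for length, the retained-intron transcript was above the canonical transcript in both tables, by 0.41 natural-log units for M and CMes and by 0.35 for CP and CM. For *TIMM50*, a receptor of the translocase, the 4 transcripts ran from 97.22 to 407.4 per kb. None of them is the canonical transcript, and technical variance made up 86.5% of the residual variance of ENST00000544017.5 and 66.1% of that of ENST00000601252.1. The residual SDs of the 4 *TIMM50* transcripts ran from 0.167 to 0.416. The first and second by counts differed by 0.02 natural-log units beside a residual SD of 0.378, so the order of the transcripts is uncertain. In the iPSC and M table, *TIMM50* had 469.8 per kb through ENST00000600878.1, which has no defined coding sequence. In the CMes and CP table it had 255.8 per kb through ENST00000594583.2, not the canonical transcript, and was the lowest of its class. In the CP and CM table it was listed only through ENST00000602028.5, at 4.417 per kb from 3.401 estimated counts and with a residual SD of 1.719.

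**Figure D2:**
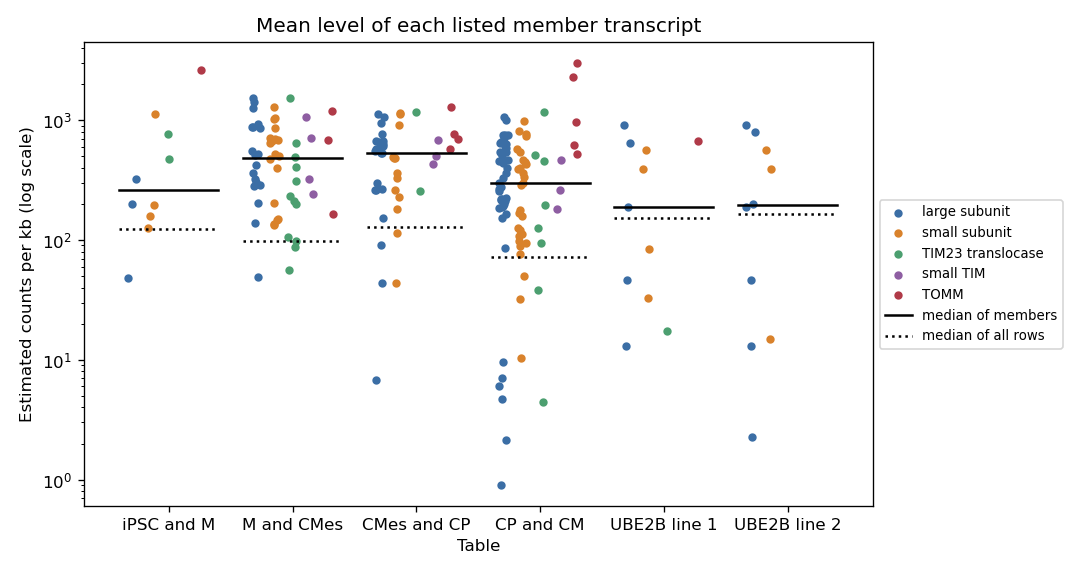
Level of each listed member transcript with a known length, in estimated counts per kb (vertical axis, log scale), in the 6 tables (horizontal axis). Points are colored by class and shifted sideways at random. Solid lines mark the median of the members and dotted lines the median of all rows of the table. The solid line lies above the dotted one in each table, and TOMM7 and TOMM20 are the highest points of the CP and CM table.

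The proteins of the large subunit made up the largest class. In the CP and CM table, 45 of its transcripts were listed, of 33 genes, with a median level of 312.3 per kb and a range from 0.9019 to 1056. *MRPL20* was the highest gene at 1056 per kb with a residual SD of 0.125, and *MRPL12*, which also binds the mitochondrial RNA polymerase, was at 997.3. These differed by less than the residual SD of either. The lowest gene was *MRPL55* at 4.678 per kb, from 6.657 estimated counts and with a residual SD of 1.347. For M and CMes, 20 transcripts of 17 genes were listed, and those with a known length had a median of 510.2 per kb. They were led by *MRPL37* at 1523 and *MRPL12* at 1412, with *MRPL43* lowest at 48.88. *MRPL45*, at 1732 estimated counts there and 1137 for CP and CM, has no known length. It is therefore in no median or ranking of levels. In the CMes and CP table, 22 transcripts of 20 genes had a median of 563.6 per kb, led by *MRPL20* at 1134, with *MRPL52* lowest at 6.825. That *MRPL52* row (ENST00000555345.5) rests on 6.109 estimated counts and has a residual SD of 1.355. The rows of *MRPL43*, *MRPL52* and *MRPL55* named here are of transcripts other than the canonical ones, so they do not give the level of the whole gene. The iPSC and M table listed only *MRPL30*, *MRPL42* and *MRPL43* of this class, at 199.3, 324.5 and 47.74 per kb.

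The small subunit showed a similar range. In the CP and CM table, 30 transcripts of 22 genes had a median of 285.7 per kb. *MRPS6* was the highest gene at 982.1 per kb, and *MRPS7* followed at 814.6. The lowest gene by the transcript with the most estimated counts was *MRPS33* at 32.11 per kb, and by the transcript with the highest level it was *MRPS12* at 76.87 per kb. Neither choice is firm. That *MRPS33* transcript had 135.2 estimated counts, and the other listed (ENST00000393008.7) had 134.5 and was at 157.7 per kb. *MRPS12* was listed under 2 identifiers, each at 71.41 estimated counts, so its level is uncertain. The identifier without a known length (ENST00000634400.1) is in no median of levels. In the M and CMes table, 19 transcripts of 15 genes had a median of 582.3 per kb, from *MRPS25* at 132.2 to *MRPS9* at 1288. In the CMes and CP table, 13 transcripts of 13 genes had a median of 360.2 per kb, from *MRPS11* at 43.4 to *MRPS6* at 1156. *MRPS11* was listed there only through a retained-intron transcript (ENST00000559323.5). In the iPSC and M table, *MRPS18B* was at 1130 per kb and *MRPS25* at 125.7. The TIM23 transcripts had a median of 223.3 per kb over 12 transcripts for M and CMes and of 160.6 over 8 for CP and CM, which includes their partial and noncoding transcripts. These medians depended on the choice of transcripts. With the most abundant listed transcript per gene they were 491.1 and 324.1, with the listed transcripts of a gene summed 808.5 and 406.5, and over protein-coding transcripts only 320.9 and 290.1.

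*MRPS5* was listed in all 4 stage tables, and in 3 of them through the same pair of transcripts. One is the canonical coding transcript (ENST00000272418.7, chromosome 2, 95085369 to 95121808), and the other is annotated as subject to nonsense-mediated decay (ENST00000345084.9, chromosome 2, 95085391 to 95122006). They are of similar length, at 3298 and 3383 bases. In the iPSC and M table the decay-annotated transcript had 667.2 estimated counts and the coding transcript 526.5. These values were 694.6 and 483.3 for M and CMes, and 364.8 and 309.7 for CP and CM. The decay-annotated transcript was thus the higher in each of the 3 tables, in estimated counts by 0.24, 0.36 and 0.16 natural-log units. The larger residual SD of the pair was 0.127, 0.137 and 0.167. The gap thus exceeded that estimate in the earlier tables and not in the CP and CM table. In the CMes and CP table, only the decay-annotated transcript was listed, at 388.5 estimated counts.

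Several listed transcripts of a gene were common in the large tables. For CP and CM, 22 genes had more than 1 listed transcript, and for 3 of them, *MRPL22*, *MRPS5* and *TIMM21*, the most abundant was not annotated as protein coding. For 5 of the 22 genes the leading transcripts differed by less than the pair's larger residual SD, in estimated counts not corrected for length. *MRPS12*, whose 2 identifiers had the same estimated counts, is included in the 5. *MRPS33* is among them, although its transcripts, of 4210 and 853 bases, were at 32.11 and 157.7 per kb. *MRPL33*, whose transcripts ENST00000296102.8 and ENST00000379666.7 had 361.2 and 304.3 estimated counts, is an example just outside that limit, with a difference of 0.17 and a residual SD of 0.162. *MRPL11* is an example inside it, with 245.1 estimated counts for the coding transcript and 226.7 for ENST00000534488.5, which is annotated as subject to nonsense-mediated decay. For M and CMes, 12 genes had more than 1 listed transcript, and for *MRPS5* and *TIMM21* the most abundant was not protein coding. *MRPS12* was listed there under the identifiers ENST00000402029.3 and ENST00000634400.1, each at 125.4 estimated counts with the same variances, and again in the CP and CM table, each at 71.41. Whether reads were split between these entries was not tested, and the level of *MRPS12* is uncertain for that reason.

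Over all tables, 113 of the 136 member transcripts were annotated as protein coding, 8 as subject to nonsense-mediated decay, 7 as retaining an intron and 5 as having no defined coding sequence, and 3 were not in GENCODE 44. Of the 94 genes, 91 had at least 1 protein-coding transcript listed. Protein-coding transcripts made up 85.4% of the annotated member rows in the CP and CM table, beside 80.5% of all annotated rows there. For CMes and CP these shares were 93.2% and 86%, and for M and CMes 87.5% and 82.7%. In the iPSC and M table the member share was 80% beside 85.4% for all rows, and in the *UBE2B*-/- tables it was 81.8% beside 83.4% for line 1 and 70% beside 83.9% for line 2, on 10 or 11 transcripts each. The median length of the member transcripts was below that of all annotated rows in each table, at 1155 bases beside 2696 for CP and CM.

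The median member level lay above the median of all rows in each table. It was 300.2 per kb beside 71.51 for CP and CM, 482.7 beside 98.08 for M and CMes, and 532.1 beside 129.3 for CMes and CP. For iPSC and M it was 261.9 beside 122.5. In the *UBE2B*-/- tables the medians were 187.1 beside 152.4 for line 1 and 194.1 beside 164.5 for line 2. Over protein-coding transcripts only, 9 of the 11 and 7 of the 10 member rows, the member median was 391 in each of these tables. The median of all rows was not recomputed in that way, so the gap is not known for that setting. The median percentile of the member transcripts within their table was 84.9 for M and CMes, 82.9 for CMes and CP, 81 for CP and CM and 70.6 for iPSC and M. It was 54.9 and 54.3 in the tables of *UBE2B*-/-1 and *UBE2B*-/-2. These values describe the listed transcripts only, and since each table was scaled and selected on its own, medians of different tables were not compared. Short transcripts weigh on the medians, because a level per kb is higher for the same count. In estimated counts, the medians were 361.2 for the members and 184.4 for all rows of the CP and CM table.

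In total, 9 genes were listed in 4 tables and none in 5 or 6. They were *MRPL15*, *MRPL34*, *MRPL35* and *MRPL47* of the large subunit, *MRPS5*, *MRPS30*, *MRPS34* and *MRPS36*, and *TIMM50*. The 4 tables of *MRPS5* and *TIMM50* were the stage tables, and the other 7 genes were in at least 1 *UBE2B*-/- table. Another 14 genes were listed in 3 tables, 34 in 2 and 37 in 1. Tables that share libraries are not independent, so these counts are a description of where the genes appear. The shares of all gene symbols listed in as many tables were not computed, so the counts do not set the members apart from other genes.

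*MRPL15*, a protein of the large subunit, was at 923 per kb in the M and CMes table, at 755.6 in CP and CM and at 914.1 in both *UBE2B*-/- tables. Its residual SD was 0.112, 0.134 and 0.161 in these fits. The canonical transcript of *MRPS34* was at 680.8 per kb for M and CMes, at 483.7 for CMes and CP and at 563 in both *UBE2B*-/- tables. For M and CMes it was accompanied by a retained-intron transcript (ENST00000569585.1) at 698.5 per kb, and these levels differed by less than the residual SD. In estimated counts, not corrected for length, the canonical transcript was higher by 0.31 natural-log units. *MRPS36* was at 229.6 per kb for CMes and CP, at 285.7 for CP and CM and at 391 in both *UBE2B*-/- tables. *MRPL35* was at 205, 152.1 and 164.4 per kb through its canonical transcript in the 3 stage tables that listed it, and at 201.2 in the *UBE2B*-/-2 table. *MRPL47* was at 870.3, 611.8 and 587 per kb in its stage tables and at 647.7 in the *UBE2B*-/-1 table.

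The gene listed was not always listed through the same transcript. *MRPL34* was at 363.7 and 359.3 per kb through its canonical transcript in the M and CMes and the CP and CM tables, but its row in both *UBE2B*-/- tables was ENST00000594999.1, at 46.22 per kb from 25.65 estimated counts and with a residual SD of 1.134. *MRPS30* was at 474.3, 328.4 and 300.2 per kb through its canonical transcript in the stage tables. In the *UBE2B*-/-1 table it was listed only through ENST00000230914.4, which has no defined coding sequence, at 84.53 per kb. That transcript was also listed in the CP and CM table, at 89.25 per kb. A count of tables by gene symbol therefore joins rows of different transcripts.

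**Figure D3:**
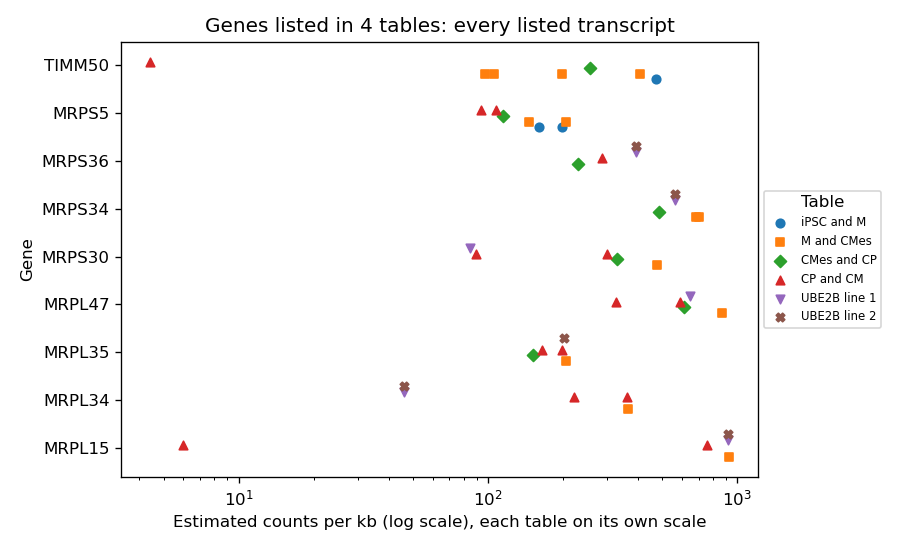
Level of every listed transcript in estimated counts per kb (horizontal axis, log scale) for the 9 genes listed in 4 tables (vertical axis), with a marker and color for each table. The markers of both UBE2B-/- tables coincide in level where they list the same transcript, as for MRPL15 at 914.1, and each table is on its own scale.

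The *UBE2B*-/- tables together listed 15 member transcripts, each of a different gene, and 6 of these were in both. In both tables were *MRPL15*, *MRPL34*, *MRPL40*, *MRPL50*, *MRPS34* and *MRPS36*. These are 6 of the 11 transcripts of the *UBE2B*-/-1 table and 6 of the 10 of the *UBE2B*-/-2 table (54.5% and 60%), beside 64.5% and 63.6% of all rows of these tables, and the tables share their wild-type libraries. *MRPL50* was at 187.1 per kb with a residual SD of 0.181, and *MRPL40* was listed through ENST00000471259.1 at 12.93 per kb with a residual SD of 1.065. Only in the *UBE2B*-/-1 table were *TIMM44*, *TOMM70*, *MRPL47*, *MRPS30* and *MRPS33*. *MRPS33* was at 32.78 per kb. Only in the *UBE2B*-/-2 table were *MRPL33*, *MRPL35*, *MRPL49* and *MRPS6*. *MRPL33* was at 793.9 per kb, whereas *MRPL49* and *MRPS6* were listed through minor transcripts at 2.247 and 14.84 per kb with residual SDs of 1.677 and 1.159. That a gene is in 1 of the tables does not show that the lines differ, and that difference was not tested.

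*UBE2B* itself was listed in the *UBE2B*-/-1 table through ENST00000499038.2, a transcript at 116.8 per kb over all 9 libraries, and was not listed in the *UBE2B*-/-2 table. A mean over wild type and mutants together cannot check the labels. Of 6 cardiomyocyte markers, 4 were listed in the *UBE2B*-/-1 table and 5 in the *UBE2B*-/-2 table, and all 6 in the CP and CM table. These and the next marker counts are to be read beside the shares of all protein-coding symbols listed. Those shares were 11.9% for *UBE2B*-/-1, 11.7% for *UBE2B*-/-2 and 37.8% for CP and CM. *TNNT2*, cardiac troponin T, was at 10654 per kb over the 9 libraries of the *UBE2B*-/- fit. Of the stromal markers, 1 of 4 was listed in the *UBE2B*-/-1 table and all 4 in the *UBE2B*-/-2 table, and *COL3A1* was at 9201 per kb in that fit. Smooth muscle had 1 of 2 markers listed in each of these tables, endothelium 0 of 3 and 1 of 3, endoderm 0 of 3 in both, and epithelium 1 of 3 and 2 of 3. Pluripotency and mesoderm markers were listed in neither, and of 5 cardiac progenitor markers only *GATA4* was listed in each. Before collection, beating CMs had been selected with lactate in medium without glucose, which favors cardiomyocytes over cells that cannot live on lactate. Markers of other cell types were still listed beside the mitochondrial genes, and their part in the rows was not tested. In bulk RNA, fewer cells of a type and less RNA per cell cannot be told apart.

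The stage tables listed 12.6% to 37.8% of all protein-coding symbols, and among them pluripotency markers were listed in the number of 0, 2, 3 and 3 of 4, from iPSC and M to CP and CM. Mesoderm markers numbered 3, 3, 4 and 1 of 4, cardiac progenitor markers 1, 3, 4 and 4 of 5, and cardiomyocyte markers 2, 1, 5 and 6 of 6. Endothelial markers numbered 0, 0, 0 and 1 of 3, smooth muscle markers 1, 1, 1 and 2 of 2, stromal markers 2, 3, 4 and 4 of 4, endoderm markers 2, 2, 3 and 2 of 3, and epithelial markers 2, 3, 2 and 2 of 3. The mean used here is taken over a pair of stages, so it does not show which stage carried a marker.

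Other genes of the same pathways were listed alongside, and their counts are to be read beside the shares of all protein-coding symbols that each table listed, 12.6% for iPSC and M, 22.7% for M and CMes, 26% for CMes and CP, 37.8% for CP and CM, 11.9% for *UBE2B*-/-1 and 11.7% for *UBE2B*-/-2. Of 6 mitochondrial ribosomal proteins with other names, 4 were in the CP and CM table, 2 in each of the M and CMes and the CMes and CP tables, 1 in the iPSC and M table, 1 in the *UBE2B*-/-1 table and 0 in the *UBE2B*-/-2 table. *DAP3*, a GTP-binding protein of the small subunit, was at 607.3, 605.4 and 547.9 per kb in the iPSC and M, the M and CMes and the CP and CM tables. *PTCD3*, another small subunit protein, was at 319 per kb for CP and CM and at 245.6 in the *UBE2B*-/-1 table. Of 12 mitochondrial translation factors and regulators, 6 were listed for M and CMes, 3 for CP and CM, 2 for iPSC and M, 1 for CMes and CP, 0 for *UBE2B*-/-1 and 1 for *UBE2B*-/-2. *LRPPRC*, which stabilizes mitochondrial messenger RNAs, was at 2006, 1886 and 1209 per kb in the first 3 stage tables. It was the only gene of this list in the CMes and CP table. *TUFM* was at 1888 per kb for M and CMes.

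Of 15 assembly factors of the mitochondrial ribosome, 7 were listed for M and CMes, 5 for CP and CM, 4 for CMes and CP, 1 for iPSC and M, 1 for *UBE2B*-/-1 and 2 for *UBE2B*-/-2. *FASTKD2*, an RNA-binding protein required for the large subunit, was at 92.66 per kb in both *UBE2B*-/- tables. Of 18 partners of protein import, 10 were listed for M and CMes, 9 for CP and CM, 5 for CMes and CP, 3 for iPSC and M, 3 for *UBE2B*-/-1 and 4 for *UBE2B*-/-2. *HSPA9*, the motor protein of matrix import, was at 2139 per kb for M and CMes through its most abundant listed transcript. *HSPD1*, the matrix chaperonin, was at 8261 per kb for CMes and CP, above every member of the ribosome and import genes in that table. In the *UBE2B*-/- tables, *HSPD1* was listed only through a minor transcript (ENST00000476746.5) at 60.09 per kb.

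Rows with few counts were the least precise. Among the 225 member rows, 15 had a residual SD over 1, and the most abundant of these had 25.65 estimated counts. The highest residual SD of the other rows was 0.713, for *MRPL22* (ENST00000265229.12) at 21.28 estimated counts in the CP and CM table. The lowest level was that of a retained-intron transcript of *MRPL28* (ENST00000481453.5), with 2.01 estimated counts and a residual SD of 1.361 in that table, where the canonical transcript of the gene had 699 counts and a residual SD of 0.141. The median residual SD of the members was 0.16 for CP and CM, beside 0.32 for all rows of the table. For the earlier stage tables it was 0.124 beside 0.185, 0.148 beside 0.222 and 0.122 beside 0.185, and for *UBE2B*-/-1 and *UBE2B*-/-2 it was 0.198 beside 0.278 and 0.2 beside 0.297. Because members were also more abundant than the median row, these values cannot be separated from the level.

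Part of the residual variance is technical, as the authors estimated by repeated quantification of the same reads. Its median over the members was 20.2% for iPSC and M, 17.1% for M and CMes, 22.7% for CMes and CP, 15.7% for CP and CM, 6.67% for *UBE2B*-/-1 and 12.5% for *UBE2B*-/-2, and it exceeded 50% in 20 of 225 rows. Among the rows of M and CMes, the median was 9.66% for the 31 transcripts that are the only one listed of their gene and 27.8% for the 28 with another transcript listed. In the CP and CM table these were 12.5% for 46 transcripts and 22.8% for 45. *TOMM20*, with a single listed transcript and 7477 estimated counts, had a technical part of 0.881% in the CP and CM table. The highest technical part was the 86.5% of the *TIMM50* transcript ENST00000544017.5 for M and CMes, followed by *MRPL21* at 77% through ENST00000450904.6 and *MRPL4* at 76.5% through ENST00000307422.9 in the same table.

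**Figure D4:**
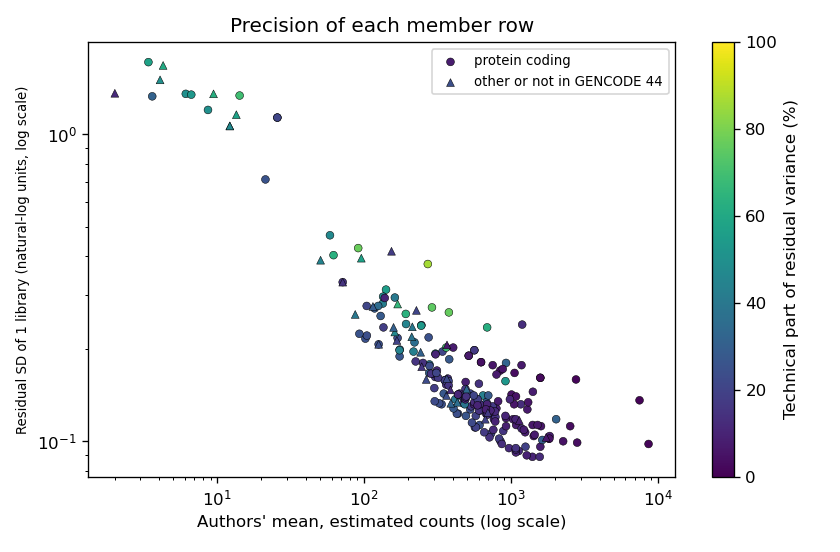
Residual SD of a library in natural-log units (vertical axis, log scale) against the authors' mean in estimated counts (horizontal axis, log scale) for the 225 member rows, with circles for protein-coding and triangles for other transcripts and color for the technical part of the variance in percent. The rows with a residual SD over 1 all lie at or below 25.65 estimated counts.

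The promoters of the listed genes were searched for short motifs known from genes of mitochondrial proteins. RefSeq promoters of equal length on GRCh38 were matched by symbol for 84 of the 94 genes. The letters CCGGAAG, the core bound by ETS factors such as GABPA, were found on either strand in 38 of the 84 (45.2%). Among 9066 promoters of the other genes in the tables, 1534 (16.9%) held them, and among all 27305 promoters 2913 (10.7%). The letters TGCGCA, the core of the site of NRF1, a regulator of nuclear genes for mitochondria, were found in 16 of the 84 (19.0%), in 1117 of the other genes in the tables (12.3%) and in 2298 of all promoters (8.4%). The letters of either motif do not contain those of the other. A match is a description of the letters and not of a bound site, and the shares were not tested.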

How the data were processed

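Poly-A RNA-seq of 21 libraries was used as deposited in 6 result tables, 4 for adjacent stages and 2 for the UBE2B-/- lines. The authors trimmed reads, quantified transcripts on hg38 with Kallisto, normalized estimated counts between libraries and fitted them with Sleuth. The mean column holds natural log values that the authors averaged over all libraries of a fit, and the variance columns are deposited scores on the squared natural-log scale. The other columns hold the authors' effects, standard errors, p-values, q-values and further variance estimates, and were not used. No column holds a library's own value (0 such columns), which leaves the depth of each library unknown, and no test was run.

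Levels were the exponential of the mean less 0.5, divided by transcript length in GENCODE 44 (GRCh38), which matched 220 of 225 member rows by identifier without version. Rows without a match have no level and were left out of the medians and rankings of levels, though they are in the counts of transcripts. The residual SD was the square root of the technical variance plus the final biological variance. Groups came from the sample labels. The named genes were the highest and the lowest of each class in each table, those in the most tables and those with the most transcripts in a table, and the others were chosen after their values were seen. Members, gene lists and alternatives were chosen with earlier results of these data known, and the promoter motifs after the tables were seen. Alternatives changed the pseudocount, the length, the biotype, the count minimum and the value per gene. Python 3.11.15 and pandas 2.3.3 were used.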

Additional observations from a re-analysis of the deposited data

How the results depend on the processing

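Of 120 values recomputed for 27 results, 84 moved by less than the median residual SD of the rows behind them (for the share of table rows, its exact binomial interval; for the technical part, the quartiles of its rows) and 36 moved by more. Not subtracting the pseudocount moved none of the 15 medians. With transcript length less 200 bases, the member medians were 566.1 per kb for M and CMes, 665.7 for CMes and CP and 373.5 for CP and CM. For M and CMes, the class medians were then 677.8 for the small subunit and 295.3 for TIM23, and for CMes and CP 710.5 for the large subunit. For CP and CM they were 419.3 for the large subunit, 337 for the small subunit, 210.6 for TIM23 and 1356 for TOMM. With protein-coding transcripts only, the member medians were 399.4 for CP and CM and 391 in each UBE2B-/- table. The class medians were then 320.9 for TIM23 in M and CMes, 483.7 for the small subunit in CMes and CP, and 401.2 for the large subunit, 346.7 for the small subunit and 290.1 for TIM23 in CP and CM. With at least 10 estimated counts, the CP and CM medians were 360.3 for all members and 401.2 for the large subunit. With the most abundant listed transcript per gene, the member medians were 324.5 for iPSC and M and 435.6 for CP and CM, and the class medians 491.1 for TIM23 in M and CMes, and 455.1, 346.7 and 324.1 for the large subunit, the small subunit and TIM23 in CP and CM. With the sum of listed transcripts per gene, the member medians were 356.9 for iPSC and M, 707.8 for M and CMes and 459.5 for CP and CM. The class medians were then 730.9, 667.3 and 808.5 for the large subunit, the small subunit and TIM23 in M and CMes, and 501.5, 388.9 and 406.5 in CP and CM. Counted by distinct gene symbols, the member share of the CP and CM table was 0.862%. These alternatives drop or merge rows of low level or divide by shorter lengths, and each value named here is above the one reported.

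No paired analysis was possible because the tables hold no value per library, and leaving out each replicate could not be run for the same reason. Means over all libraries of a fit, the authors' selection of rows, separate scaling and unknown depth limit every level given.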
